A study of Mus musculus with 6 samples.

Results

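The 8 genes described here were Il1a, Il1b, Il6, Il12b, Il18, Ptgs2 and Nlrp3, inflammatory mediators of myeloid cells, and Il1rn, the antagonist of IL-1. They were chosen by name, as 8 of the 34187 gene features in the raw matrices, with earlier results of these data known. The genes were followed in macrophage-like, monocyte-like, neutrophil-like and dendritic-cell-like clusters, by treatment. In macrophages of mice given mono-IL10, 4 of the 7 members that could be tested (Il1rn, Ptgs2, Il1b and Nlrp3) were called higher than in PBS mice and 0 were called lower, where 25.9% of all genes tested were called in either direction. Of these, Il1rn is a gene that IL-10 is known to raise, and it alone of the 4 stayed called both when scaled by library totals (which kept Il1rn and Nlrp3) and at the same mix of clusters (which kept Il1rn and Il1b). Il12b in 1 of the 4 dendritic cell clusters was lower in every mono-IL10 mouse than in every PBS mouse (means 5.46 and 138 counts per 1000000), at the smallest p that 5 against 5 mice allow, and did not pass the adjustment over 55 tests. A label of genes repressed by IL-10 thus did not describe the members called in macrophages of mono-IL10 mice, as sampled on day 14 from 1 library. Il6 was sparse there and not called, Il12b was too sparse to test, and earlier times after a dose were not sampled. In IL10/2-Trikine macrophages, Ptgs2 (log2 fold change -0.54), Il1a (-0.51) and Nlrp3 (-0.32) were lower than in PBS, and Il18 (0.39) was higher. These calls were lost at the same mix of clusters. The genes are therefore called the 8 listed inflammatory genes below.

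Cells that carry CD45, the surface protein of blood-derived cells, had been isolated with beads from subcutaneous 6694c2vTRP1 tumors, a pancreatic ductal adenocarcinoma line grown in C57BL/6 mice of both sexes from 250000 injected cells. The 3 groups of 5 mice received PBS, mono-IL10 at 26 µg per mouse (a monomeric human IL-10) or IL10/2-Trikine at 30.6 µg per mouse (mono-IL10 joined to a binder of the IL-2 receptor beta chain). The agents went into the peritoneum in 2 doses, every other day from day 8, and the tumors were taken on day 14. The mice of a group were labeled with 5 hashtag antibodies and sequenced as 1 library, so that treatment and library cannot be told apart.

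IL-1 alpha (Il1a) and IL-1 beta (Il1b) act on the same receptor, which the antagonist encoded by Il1rn blocks. IL-1 beta and IL-18 (Il18) are made as precursors that caspase-1 cuts in inflammasomes, of which the Nlrp3 protein is a sensor. IL-6 (Il6) and the p40 subunit shared by IL-12 and IL-23 (Il12b) are secreted by activated myeloid cells, and Ptgs2 encodes cyclooxygenase-2, the inducible enzyme of prostaglandin synthesis. NF-kB drives the transcription of many of these genes, and IL-10, acting through STAT3, is best known for damping that output in macrophages while raising Il1rn.

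The stretch of DNA just before each start site is shown because these genes are classical NF-kB targets. RefSeq windows were matched for 8 of 8 members, and the 250 bases before the most upstream start were searched on both strands for a loose form of the NF-kB site, GGGA and CC with any 4 bases between them (GG, 4 bases and TCCC on the other strand). These letters were found in 3 of the 8 windows (Il6, Il1rn and Nlrp3) and in 17.4% of the windows of 27018 genes. Il6 held 2 overlapping matches, 44 and 43 bases before the start, Il1rn held 1 at 54 bases and Nlrp3 1 at 186 bases. The windows of Il1b and Ptgs2, which held none, are shown for comparison. Capitals mark the matches. Coordinates are those of GRCm38.p6, whereas the deposited counts were made on GRCm39: Il6 chr5:30012864-30013113 on the plus strand, Il1rn chr2:24336610-24336859 (plus), Nlrp3 chr11:59541319-59541568 (plus), Il1b chr2:129371140-129371389 (minus) and Ptgs2 chr1:150099781-150100030 (plus).
Il6: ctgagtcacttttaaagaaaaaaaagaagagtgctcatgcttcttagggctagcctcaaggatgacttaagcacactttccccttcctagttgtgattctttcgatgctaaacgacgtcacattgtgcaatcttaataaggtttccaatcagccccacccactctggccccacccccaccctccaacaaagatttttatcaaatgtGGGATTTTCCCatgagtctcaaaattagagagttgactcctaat
Il1rn: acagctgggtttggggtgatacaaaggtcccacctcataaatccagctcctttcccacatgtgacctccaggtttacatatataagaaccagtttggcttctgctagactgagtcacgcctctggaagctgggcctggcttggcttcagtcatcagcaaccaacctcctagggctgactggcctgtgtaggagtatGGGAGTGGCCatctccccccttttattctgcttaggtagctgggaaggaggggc
Nlrp3: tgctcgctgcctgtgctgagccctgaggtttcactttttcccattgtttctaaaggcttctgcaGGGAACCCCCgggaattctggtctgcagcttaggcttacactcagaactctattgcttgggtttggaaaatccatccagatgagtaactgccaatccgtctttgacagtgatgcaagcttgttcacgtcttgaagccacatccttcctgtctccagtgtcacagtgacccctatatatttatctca
Il1b: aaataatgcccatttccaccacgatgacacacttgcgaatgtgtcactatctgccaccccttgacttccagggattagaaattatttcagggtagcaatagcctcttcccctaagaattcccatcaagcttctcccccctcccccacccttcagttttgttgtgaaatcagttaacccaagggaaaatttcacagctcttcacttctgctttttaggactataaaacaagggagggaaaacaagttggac
Ptgs2: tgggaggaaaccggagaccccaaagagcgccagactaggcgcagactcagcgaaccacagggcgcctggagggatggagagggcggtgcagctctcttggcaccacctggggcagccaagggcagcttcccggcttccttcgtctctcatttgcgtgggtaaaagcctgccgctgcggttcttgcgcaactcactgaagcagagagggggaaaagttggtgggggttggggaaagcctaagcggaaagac
The letters TTCNNNGAA, a loose STAT site, were in 0 of the 8 windows and 7.1% of all genes, and TGANTCA, a loose AP-1 site, was in 3 (Il1a, Il1rn and Il6) and 6.9% of all genes. The 2 other annotated starts of Il1rn and the 1 other of Nlrp3 held no NF-kB-type match.

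The gene expression libraries held 44412 barcodes in PBS, 30528 with mono-IL10 and 55504 with IL10/2-Trikine, with 515236552, 458860129 and 364814102 UMIs (unique molecular identifiers, each 1 captured RNA molecule). The labels call the cells tumor-infiltrating lymphocytes, but tumor epithelial clusters made up 35.4%, 36.1% and 55.3% of the clustered barcodes. Among the barcodes with a hashtag call of 1 mouse they made up 24.4%, 27.1% and 40.9%. Pairs of libraries shared 408 to 700 barcodes. The cells in the comparisons, all with 1 hashtag, were 5524, 3933 and 2683 macrophages in PBS, mono-IL10 and IL10/2-Trikine, 772, 438 and 379 dendritic cells, 257, 437 and 39 neutrophils, and 220, 149 and 34 monocytes. UMIs were summed by mouse in each class, and levels are given as counts per 1000000 of that sum (CPM). Macrophages carried 10 of 10 macrophage markers in each group, at a summed 22248 to 27019 CPM over the PBS mice, 26354 to 31460 in mono-IL10 and 28351 to 31316 in IL10/2-Trikine.

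Across the classes, the IL-1 genes had their highest CPM in neutrophils. CPM is a share of the RNA of a class, and a count per cell can rank the classes otherwise. Over all clustered barcodes with mono-IL10, 631 neutrophils held 30508 Il1b UMIs and 517 dendritic cells 29871, fewer per neutrophil. In PBS (18761 in 407 neutrophils, 41554 in 1002 dendritic cells) and IL10/2-Trikine (1563 in 52, 9664 in 525) neutrophils held more per cell. Il1b averaged 14685 CPM in neutrophils (12 mice), 6998 in monocytes (11 mice), 5264 in macrophages (15 mice) and 4678 in dendritic cells (15 mice). Il1rn averaged 2844 CPM in neutrophils, 1065 in macrophages, 855 in monocytes and 511 in dendritic cells. Il1a followed the order neutrophil, macrophage, monocyte and dendritic cell at 1377, 287, 196 and 117 CPM. The ranges of neighboring classes after the neutrophils overlapped for Il1b. These means pool the treatments, and with IL10/2-Trikine alone the order after the neutrophils differed. The 1 monocyte mouse there stood above the macrophages for Il1a (296 against 218 CPM) and Il1rn (1210 against 975), and dendritic cells were level with macrophages for Il1b (4257 against 4233).

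The remaining genes had other orders. Nlrp3 was highest in neutrophils at 1395 CPM, against 480 in macrophages, 419 in monocytes and 305 in dendritic cells. Ptgs2 ran from 1124 CPM in neutrophils and 650 in monocytes to 480 in macrophages and 392 in dendritic cells, but with IL10/2-Trikine dendritic cells (395 CPM) stood above the 1 monocyte mouse (350) and the macrophages (346). Il18 was highest in monocytes at 46.1 CPM, with 23.8 in macrophages, 16.0 in neutrophils and 12.5 in dendritic cells. With IL10/2-Trikine the order differed, as neutrophils (36.3 CPM, 3 UMIs in 2 mice) and macrophages (28.6 CPM) stood above the 1 monocyte mouse (26.9 CPM, 1 UMI). With mono-IL10, dendritic cells (13.1 CPM, 66 UMIs) stood above neutrophils (10.8 CPM, 18 UMIs). Il6 was scarce throughout, at 20.7 CPM in monocytes, 19.5 in dendritic cells, 13.2 in macrophages and 3.1 in neutrophils, and its order depended on treatment: in PBS it was 25.8 in dendritic cells, 15.5 in macrophages and 12.5 in monocytes, and in mono-IL10 monocytes came first at 32.9. Il12b was nearly restricted to dendritic cells, at 105 CPM against 0.79 in macrophages, and 0 of its UMIs were seen in monocytes or neutrophils.

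**Figure D1:**
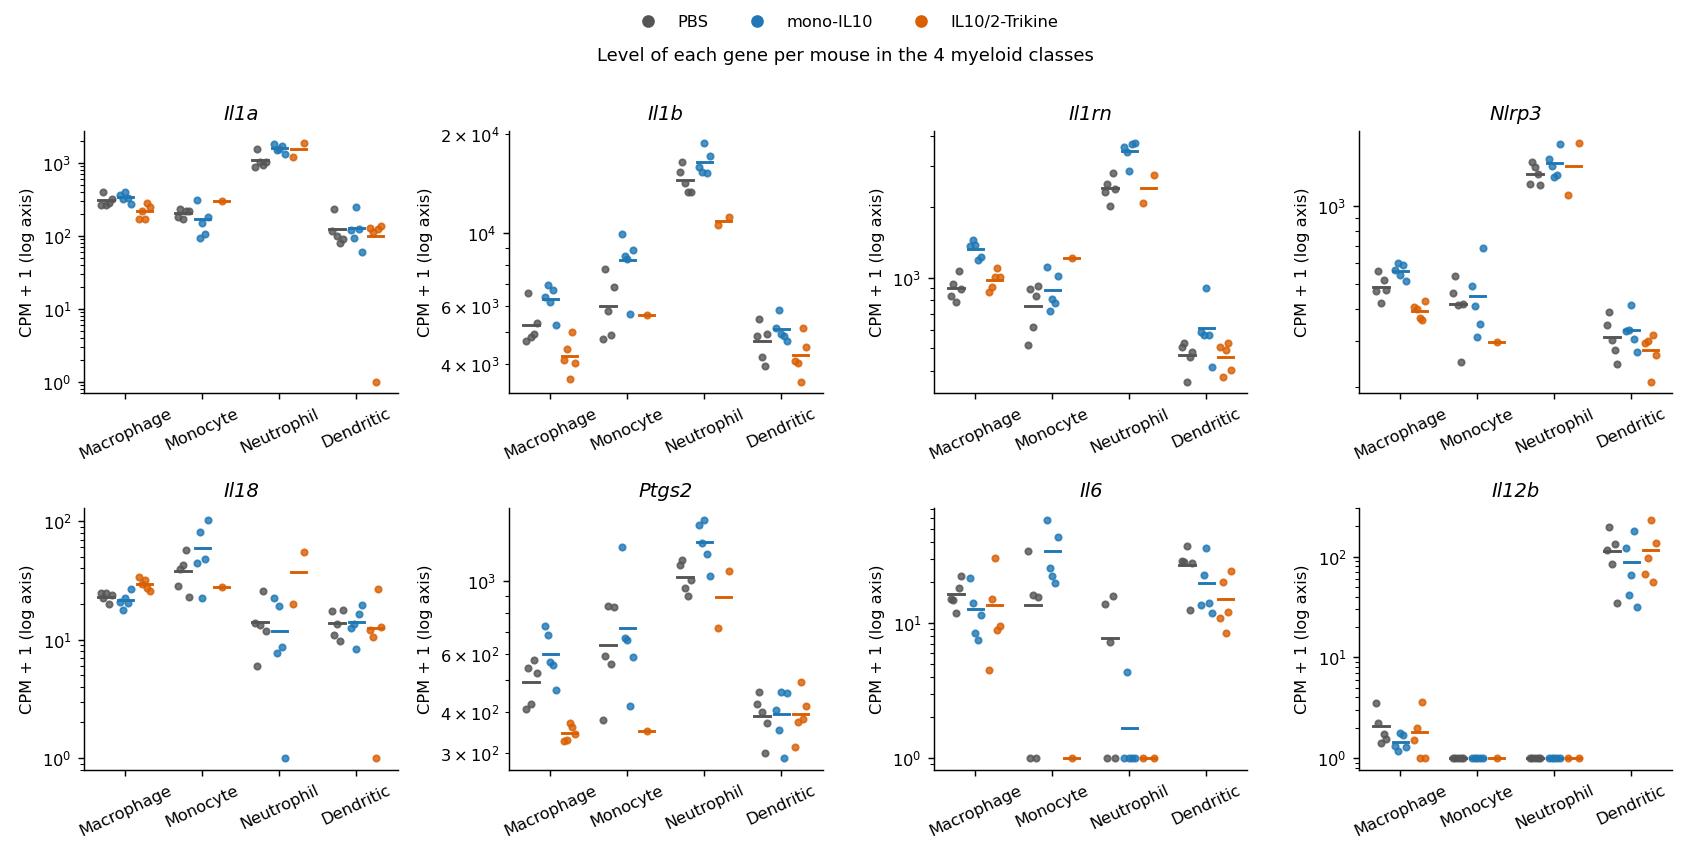
Level of each of the 8 genes in each mouse, as CPM + 1 on a log axis, in the 4 classes and colored by treatment, with bars for the group means. Neutrophils stand highest for Il1a, Il1b, Il1rn and Nlrp3, and Il12b is seen almost only in dendritic cells, where it averages 105 CPM.

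These classes were not the only source of the messages among the CD45-selected cells. Macrophages held 69.4% of the Il1b UMIs of named clusters in PBS, 71.7% with mono-IL10 and 59.5% with IL10/2-Trikine (means over 5 mice). For Ptgs2 the tumor epithelial clusters held 66.7%, 70.7% and 82.2%, and for Il18 74.6%, 79.7% and 85.6%. Il1rn was split between macrophages (46.2%, 48.3% and 32.7%) and tumor epithelial clusters (42.5%, 39.9% and 60.3%). Shares of this kind depend on how many cells of each type were captured. Tumor epithelial clusters were 24.4%, 27.1% and 40.9% of the barcodes with 1 hashtag. Within these clusters Il1rn stood at 166, 165 and 117 CPM in the 3 libraries, Ptgs2 at 288, 380 and 227 CPM, and Il18 at 17.6, 17.5 and 21.0 CPM. Dendritic cells held 89.0%, 95.8% and 91.2% of the Il12b UMIs, and the largest named holder of Il6 was endothelial cells at 43.9%, 30.8% and 42.5%, ahead of macrophages (25.3%, 21.4% and 11%) in each group by mean and of fibroblasts (14.4%, 15.4% and 21.3%). The shares of the 4 myeloid classes were compared between treatments in 90 exact two-sided permutation tests over mice, and those of the other types were not tested. Of the 90, 30 had an unadjusted p under 0.05 and 0 passed the adjustment, with a smallest adjusted p of 0.0649. Clusters without a name held 57.0%, 53.5% and 69.7% of all Il1b UMIs and were outside these shares. With them in the denominator, 22 tests passed in IL10/2-Trikine minus PBS, 11 between the agents and 1 in mono-IL10 minus PBS.

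The first question was what mono-IL10, the parent cytokine, did to the genes in macrophages. Il1rn, Ptgs2, Il1b and Nlrp3 rose relative to PBS, Il1rn the most, and none of the members tested was called lower. Among the 7 members tested 4 were called, where 25.9% of all genes tested were called (edgeR's quasi-likelihood test, Benjamini-Hochberg adjusted p under 0.05). The p-values measure the spread between mice of a library.

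Il1rn stood at 831, 938, 789, 1065 and 895 CPM in the 5 PBS mice and at 1359, 1448, 1370, 1185 and 1220 CPM in the 5 mono-IL10 mice. Every mono-IL10 mouse was above every PBS mouse. The log2 fold change of Il1rn was 0.63 ± 0.09 (SE, adjusted p = 3.0e-05 by edgeR), and it passed in 25 of 25 alternative settings. Il1b stood at 4682, 6580, 4813, 4927 and 5335 CPM in PBS and at 6406, 6937, 6146, 6702 and 5261 CPM in mono-IL10. These ranges overlapped through 1 high PBS mouse and 1 low mono-IL10 mouse. The log2 fold change of Il1b was 0.34 ± 0.11 (SE, adjusted p = 0.0319 by edgeR) and passed in 16 of 25 settings.

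Ptgs2 had 408, 542, 423, 574 and 525 CPM in PBS and 731, 687, 566, 556 and 466 CPM in mono-IL10, with overlapping ranges (log2 fold change 0.37 ± 0.12, adjusted p = 0.0237 by edgeR). Nlrp3 had 467, 557, 421, 517 and 470 CPM in PBS and 563, 600, 539, 591 and 512 CPM in mono-IL10. The Nlrp3 ranges overlapped as well, at a log2 fold change of 0.29 ± 0.08 (SE, adjusted p = 0.0142 by edgeR). Il1a gave a log2 fold change of 0.21 ± 0.14 (adjusted p = 0.296 by edgeR), Il6 gave -0.27 (0.543) and Il18 gave -0.02 (0.896), none of which passed. Of the 4 calls, Ptgs2 passed in 18 and Nlrp3 in 22 of 25 settings. Scaling by library totals in place of TMM moved the median of all genes from -0.02 to -0.11 and the split of higher and lower calls from 1455 and 1594 to 885 and 2422, and it left Il1rn and Nlrp3 of the 4 members called.

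IL10/2-Trikine gave another pattern. Against PBS, macrophages had less Ptgs2, Il1a and Nlrp3 and more Il18, with 4 of 7 members called and 15.6% of all genes. Ptgs2 stood at 325, 329, 370, 361 and 343 CPM in the 5 IL10/2-Trikine mice, below every PBS mouse, and changed by -0.54 ± 0.12 (log2, SE, adjusted p = 0.00407 by edgeR). Il18 stood at 32.6, 28.3, 31.0, 26.3 and 24.9 CPM against 23.6, 21.3, 23.6, 19.1 and 22.6 CPM in PBS. The Il18 groups did not overlap, and the log2 fold change was 0.39 ± 0.12 (SE, adjusted p = 0.0256 by edgeR), which passed in 18 of 25 settings and was lost without IL10/2-Trikine mouse 1 or PBS mouse 4. Nlrp3 (406, 398, 367, 362 and 430 CPM) changed by -0.32 ± 0.09 (adjusted p = 0.0149), and Il1a (172, 222, 169, 281 and 246 CPM against 267, 400, 266, 282 and 322 CPM in PBS) by -0.51 ± 0.15 (adjusted p = 0.0260), in edgeR. Both overlapped with PBS by 1 or more mice. Ptgs2 passed in 23, Nlrp3 in 22 and Il1a in 20 of the 25 settings. Il1b changed by -0.33 ± 0.11 (adjusted p = 0.0514 by edgeR), Il1rn by 0.09 (0.560) and Il6 by -0.74 ± 0.40 (0.237), and these did not pass.

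The direct contrast of the agents was the widest. In IL10/2-Trikine macrophages 5 members were lower and 1 was higher than in mono-IL10 macrophages, 6 of 7 tested against 11.3% of all genes. Ptgs2 changed by -0.91 ± 0.12 (log2, SE, adjusted p = 6.6e-05 by edgeR) and Nlrp3 by -0.61 ± 0.09 (adjusted p = 0.000113). Il1b, at 4112, 4428, 3601, 5003 and 4020 CPM in IL10/2-Trikine, lay below all 5 mono-IL10 mice and changed by -0.67 ± 0.11 (adjusted p = 0.00059 by edgeR). Il1rn, at 864, 907, 1003, 1097 and 1004 CPM, also lay below all 5 mono-IL10 mice (log2 fold change -0.54 ± 0.09, adjusted p = 0.000671 by edgeR), and near the PBS mice. Il1a changed by -0.72 ± 0.15 (adjusted p = 0.00379 by edgeR), with overlapping ranges. Il18, in contrast, was higher by 0.41 ± 0.12 (adjusted p = 0.0268 by edgeR) and passed in 16 of 25 settings. Library totals moved the median of all genes from 0.03 to 0.13 and the split of calls from 609 higher and 725 lower to 1241 and 415 here. The 3 contrasts share their groups and are not independent of each other.

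**Figure D2:**
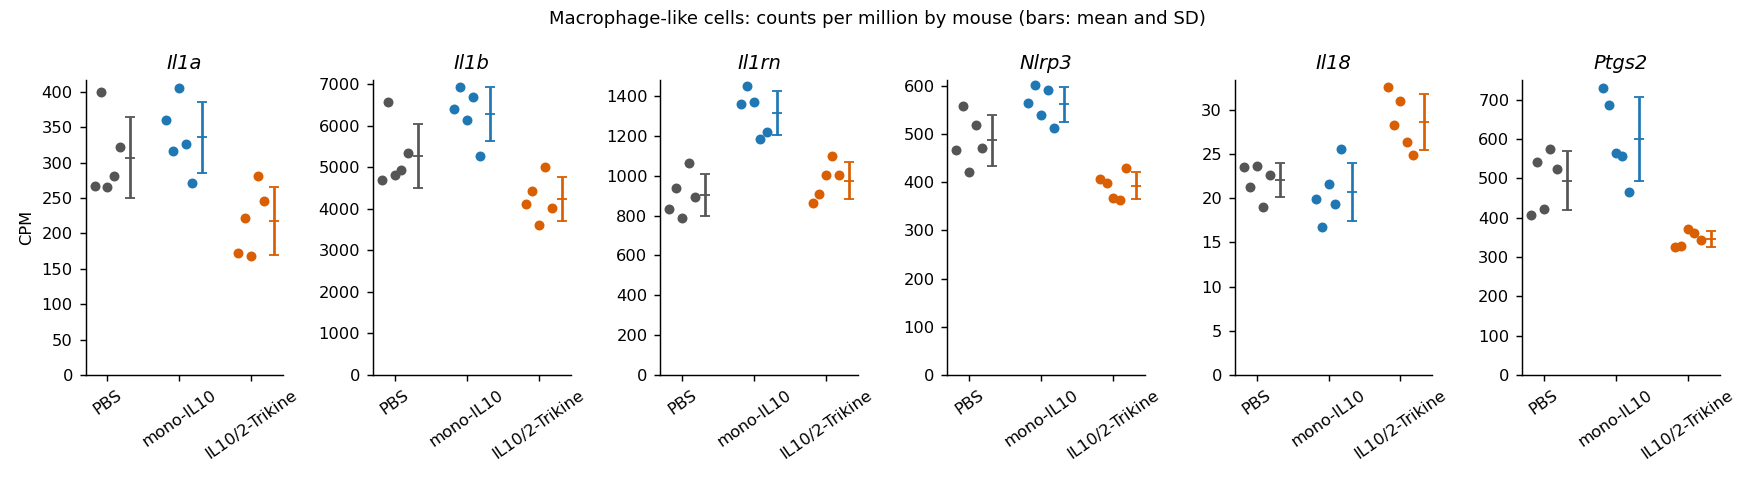
Level of 6 genes in macrophages, in CPM from 0, with 1 point per mouse and the mean and SD of the 5 mice beside each group. All 5 mono-IL10 mice lie above the PBS mice for Il1rn, and all 5 IL10/2-Trikine mice lie below both other groups for Ptgs2.

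Il6 and Il12b were near the limit of detection in macrophages. Il6 rested on 547, 380 and 78 UMIs, and ranged over 10.9 to 21.2 CPM in PBS, 6.5 to 20.7 in mono-IL10 and 3.5 to 29.1 in IL10/2-Trikine, so the 3 ranges overlapped. Il12b had 45, 14 and 7 UMIs in all and did not pass the filter on low counts.

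RNA of other cells moved with treatment in macrophages. The summed neutrophil markers ranged over 579 to 741 CPM in PBS, 386 to 631 in mono-IL10 and 537 to 969 in IL10/2-Trikine. T cell markers summed to 19.1 to 31.6, 5.8 to 23.7 and 35.6 to 64.9 CPM, and tumor epithelial markers to 34.2 to 98.9, 22.7 to 39.5 and 52.4 to 118 CPM, with Cldn4 at 0 in both treated groups. By CPM, neutrophils had more Il1b, Il1rn and Ptgs2 than macrophages, and tumor epithelial clusters had 94.2, 48.8 and 69.2 CPM of Il1b in the 3 libraries and 288, 380 and 227 CPM of Ptgs2. Without droplets with epithelial UMIs the members called in macrophages numbered 4, 4 and 6, as in all droplets, with Ptgs2 at 0.37, -0.53 and -0.91 (adjusted p = 0.0265, 0.00531 and 7.92e-05 by edgeR) in mono-IL10 minus PBS, IL10/2-Trikine minus PBS and between the agents. The part of neutrophil and T cell RNA in the macrophage values was not tested.

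The macrophages were a mixture whose composition shifted with treatment, and the genes differed among its clusters. The cluster with most Il1b was number 21, led by Ear2, Dcstamp, Ccl17 and Mgl2, at a mean of 8435 CPM, and it made up 12.7% of the macrophage-type cells in PBS, 3.6% with mono-IL10 and 2.7% with IL10/2-Trikine. Cluster 12 (Pde10a, Pgf) followed with 7767 CPM and 12.2%, 17.1% and 5.3% of the cells. The lowest was cluster 11 (Ccl12, Ccl7, Fcrls, Stab1) with 2244 CPM, which made up 8.0%, 7.7% and 21.4%. Ptgs2 was highest in the same 2 clusters, at 930, 1021 and 879 CPM in cluster 21 and 751, 970 and 672 CPM in cluster 12 (PBS, mono-IL10 and IL10/2-Trikine), and lowest in cluster 11 at 151, 167 and 154 CPM. Cluster 16 (Fcrls, Nrg1, Tmem26, Ccl8; Il1b 4033 CPM) made up 1.8%, 26.4% and 7.0%, and cluster 14 (Cx3cr1, Hpgds, Aoah; Il1b 3513 CPM) was 21.8%, 2.4% and 1.3%. The rest were cluster 15 (Cd72, Cd74, Cxcl9; Il1b 4661 CPM) and cluster 53, led by the interferon-response genes Rsad2 and Ifit2, with 3663 CPM of Il1b.

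**Figure D3:**
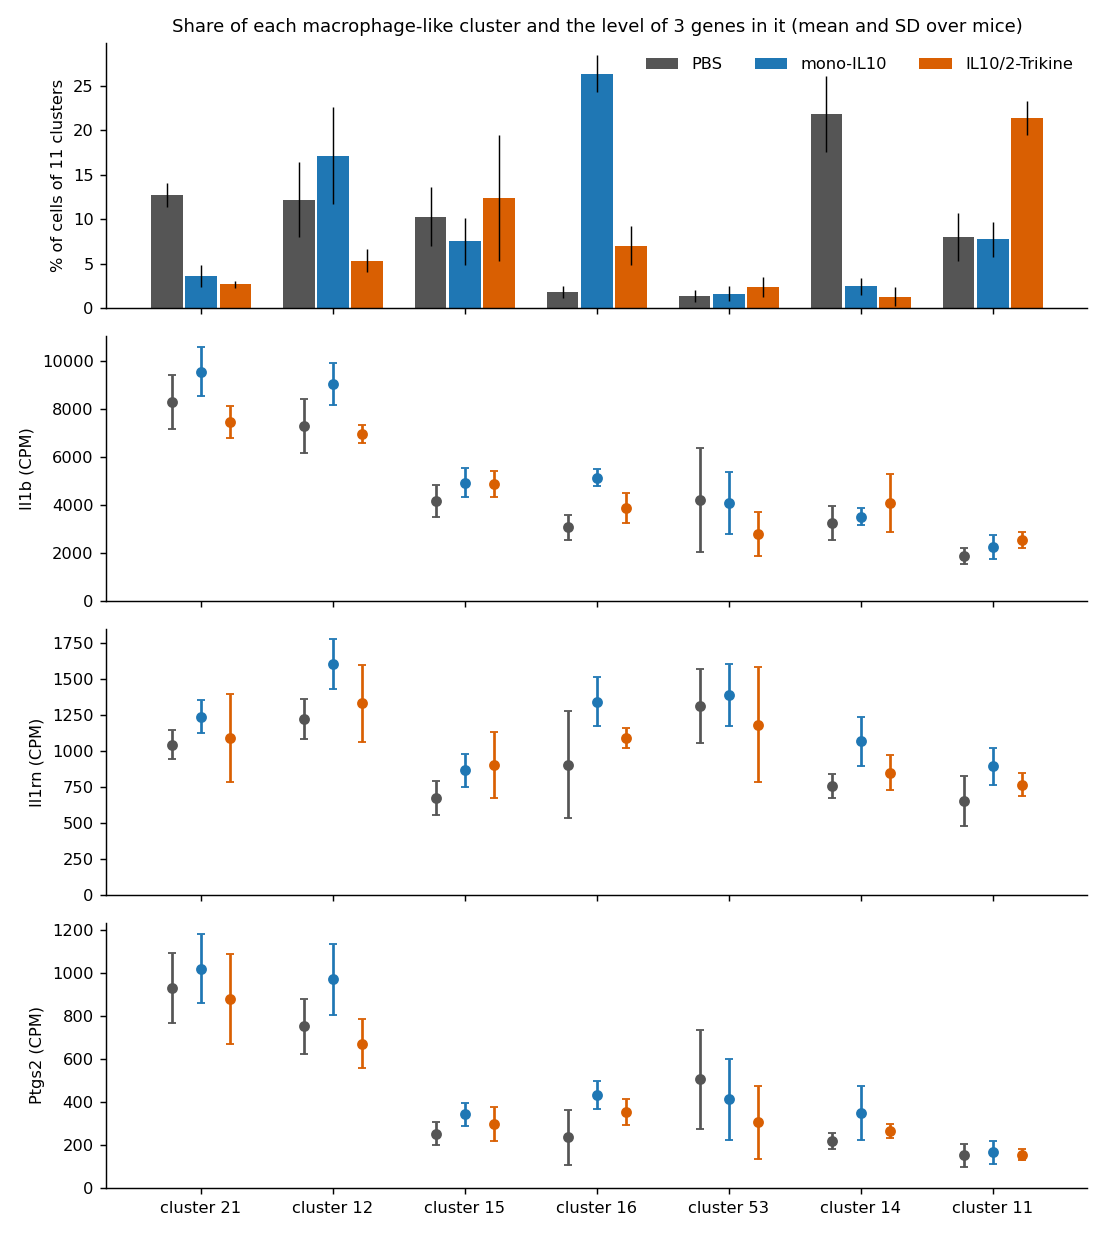
Top, share of each of the 7 macrophage-like clusters among the cells of all 11 macrophage-type clusters, and below, Il1b, Il1rn and Ptgs2 in CPM in each cluster, as mean and SD over mice by treatment. Clusters 21 and 12 carry most Il1b and Ptgs2, and cluster 11, with a mean Il1b of 2244 CPM, takes the largest share of the 7 in IL10/2-Trikine.

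Within clusters the antagonist kept its direction. The mean of Il1rn was higher in mono-IL10 than in PBS in 7 of 7 clusters, with a median log2 difference of 0.39, and Il1b was higher in 6 of 7, with a median of 0.24. Ptgs2 was higher in mono-IL10 than in PBS in 6 of 7 clusters and lower in IL10/2-Trikine than in mono-IL10 in 6 of 6, with a median log2 difference of -0.25. The clusters come from the same mice and are not replicates. Every mono-IL10 mouse lay above every PBS mouse in 1 of the 7 clusters for each of Il1rn, Il1b and Ptgs2. For Ptgs2, every IL10/2-Trikine mouse lay below every mono-IL10 mouse in 0 of the 6. Il1b in IL10/2-Trikine was lower than in PBS in 3 clusters and higher in 3.

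When every mouse was given the same mix of 6 clusters, on 78 to 464 cells of each mouse, the contrasts with IL10/2-Trikine lost all their calls. Ptgs2 against PBS went from -0.54 to -0.16 (adjusted p = 0.559 by edgeR), Nlrp3 from -0.32 to 0.03 (0.927) and Il1a from -0.51 to -0.38 (0.164), while Il18 stayed at 0.38 (0.332). Against mono-IL10, Ptgs2 went to -0.40 (adjusted p = 0.114), Il1b to -0.33 (0.0767), Il1rn to -0.22 (0.254), Nlrp3 to -0.20 (0.35), Il1a to -0.35 (0.263) and Il18 to 0.64 (0.0794). The rise with mono-IL10 was kept for Il1rn at 0.42 (adjusted p = 0.00363) and Il1b at 0.36 (0.0154), and lost for Ptgs2 at 0.24 (0.261) and Nlrp3 at 0.23 (0.13). This fit held fewer cells as well as a fixed mix. Cluster 21 was the least macrophage-like by its score (0.287, at a limit of 0.25 for a name), carried 10 of 10 macrophage markers, and shared Ccl17, Mgl2 and H2-Eb1 among its leading genes with the dendritic cell cluster 35. It held 18.3% of the macrophages compared in PBS, 5.6% with mono-IL10 and 4.7% with IL10/2-Trikine. Without it, an alternative added after the data were seen, 4 members were called in mono-IL10 minus PBS (Ptgs2 at 0.74 and Il1b at 0.56) and 6 between the agents, but 1 in IL10/2-Trikine minus PBS, where Il1a stayed at -0.48 (adjusted p = 0.0464 by edgeR) and Ptgs2 (-0.24, 0.299), Nlrp3 (-0.25, 0.0749) and Il18 (0.22, 0.232) lost their calls. A further 4 clusters with macrophage markers, led by a marker of another class, were outside the class (31.9%, 33.6% and 47.6% of the macrophage-type cells). With them put back 2 of 7 members were called in IL10/2-Trikine against PBS, as Il1a (-0.30, adjusted p = 0.191 by edgeR) and Nlrp3 (-0.22, 0.08) lost their calls. Il1b lost its call in mono-IL10 minus PBS (0.29, 0.0606), and Il1a lost its call between the agents (-0.46, 0.0543).

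The share of macrophages with a UMI, after each cell was thinned to 3000 UMIs, is given for the cells deep enough to be thinned. This left out 724 of 5524, 284 of 3933 and 1420 of 2683 macrophages of the PBS, mono-IL10 and IL10/2-Trikine groups, and kept 129, 398 and 49 T cells. For Il1rn it was 72.8% in PBS, 81.9% with mono-IL10 and 77.5% with IL10/2-Trikine, where 33.3%, 14.8% and 39.4% of T cells also had a UMI. The mono-IL10 minus PBS difference of 9.15 percentage points had p = 0.00794, the smallest that 5 against 5 mice allow in the exact two-sided permutation test, and an adjusted p of 0.246 over 62 tests. Il1b was seen in 91.4%, 93.8% and 94.1% of macrophages and in 53.2%, 31.9% and 56.0% of T cells. Ptgs2 was seen in 45.6%, 51.3% and 45.8% of macrophages against 20.9%, 6.9% and 16.0% of T cells. Before thinning, at median depths of 5677.5, 6798.5 and 2955 UMIs per macrophage and 2763, 3824 and 2676 per T cell, Il1b was seen in 92.3%, 95% and 91.2% of macrophages and 44.2%, 36.6% and 52.4% of T cells. Of the 62 tests 5 had an unadjusted p under 0.05 and 0 passed the adjustment.

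The RNA of an agonist and its antagonist was compared as the UMIs of Il1b per UMI of Il1rn, as each 5′ UMI counts 1 molecule whatever its length. Protein, including cut IL-1 beta, was not measured, and Il1a was not part of this ratio. In macrophages the ratio was 5.87 in PBS (4.62 to 7.02 over mice), 4.79 in mono-IL10 (4.31 to 5.65) and 4.36 in IL10/2-Trikine (3.59 to 4.88). The groups overlapped. The log2 of Il1rn over Il1b was 0.43 higher in IL10/2-Trikine than in PBS (exact permutation p = 0.0238, adjusted p = 0.212 over 10 tests) and 0.29 higher in mono-IL10 (exact p = 0.0556, adjusted p = 0.212). With the same mix of clusters the mean log2 was -2.41, -2.37 and -2.25 for PBS, mono-IL10 and IL10/2-Trikine, against -2.54, -2.25 and -2.11 without it. Neutrophils had 6.08, 4.82 and 4.54, the last from 2 mice, and with the low-gene barcodes of all 15 mice 5.61, 4.47 and 4.84. Dendritic cells had 10.1, 8.87 and 9.32. Monocytes went the other way, from 8.07 in PBS to 9.35 with mono-IL10 (log2 difference of Il1rn over Il1b -0.21, exact permutation p = 0.27, adjusted p = 0.408), and stood at 4.59 in the 1 IL10/2-Trikine mouse. Of the 10 tests 0 passed the adjustment, with 1 at an unadjusted p under 0.05.

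Neutrophils, the class with the highest Il1b CPM, had more Il1rn with mono-IL10, as the macrophages did. Neutrophil-like cells carried neutrophil markers at 28769 to 44431 CPM in PBS, 38532 to 44846 in mono-IL10 and 22707 to 26976 in IL10/2-Trikine, where only 2 mice had the 10 cells required. Against PBS, 2 of 5 members tested rose in mono-IL10 neutrophils, where 4.87% of all genes were called. Il1rn stood at 2310, 2505, 2023, 2791 and 2391 CPM in PBS and 3597, 3413, 2848, 3697 and 3737 CPM in mono-IL10, without overlap (log2 fold change 0.59 ± 0.11, adjusted p = 0.00298 by edgeR). It passed in 21 of 21 settings. Il1a stood at 884, 1578, 1043, 948 and 1024 CPM in PBS and at 1814, 1509, 1584, 1721 and 1329 CPM in mono-IL10, overlapping only through 1 PBS mouse (0.61 ± 0.15, adjusted p = 0.0171 by edgeR). Ptgs2 (0.43, adjusted p = 0.0594 by edgeR) and Il1b (0.25, 0.162) did not pass.

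The neutrophils were 2 clusters whose mix shifted with treatment. Cluster 39, led by G0s2, S100a9 and S100a8 and with Siglecf and Ltc4s among its leading genes, made up 31.9% of the neutrophils in PBS, 51.3% with mono-IL10 and 64.1% with IL10/2-Trikine, and cluster 38 the rest. Within cluster 39, Il1rn averaged 3360 CPM with mono-IL10 (3208 to 3576) and 2137 CPM in PBS (1723 to 2993), without overlap (exact permutation p = 0.00794, the smallest possible, adjusted p = 0.0873 over 11 tests). Within cluster 38 it averaged 3489 CPM (2357 to 4069) and 2522 CPM (2083 to 2984), with overlap (exact p = 0.0397, adjusted p = 0.105). Il1a averaged 1683 and 1091 CPM in cluster 38 (exact p = 0.0317, adjusted p = 0.105) and 1481 and 1219 CPM in cluster 39 (exact p = 0.19, adjusted p = 0.261), overlapping in both. The means thus kept their direction in each cluster, but 0 of the 11 tests passed, and 5 had an unadjusted p under 0.05. With IL10/2-Trikine too few mice had 10 cells in a cluster for this comparison.

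In the 2 IL10/2-Trikine mice Il1b was 10522 and 11166 CPM, below all 5 PBS mice (13256 to 16411) and all 5 mono-IL10 mice (15226 to 18704). Against PBS this was a log2 fold change of -0.58 ± 0.14 (adjusted p = 0.0295 by edgeR), 1 of 5 members where 1.75% of all genes were called. Against mono-IL10, 3 of 5 members were lower (5.14% of all genes), Il1b by -0.83 ± 0.14 (adjusted p = 0.000789 by edgeR), Ptgs2 by -0.81 ± 0.21 (0.0276) and Il1rn by -0.76 ± 0.17 (0.00742). Macrophage markers in these neutrophils ran at 1425 to 4233, 832 to 1438 and 2834 to 7355 CPM in PBS, mono-IL10 and IL10/2-Trikine, and tumor epithelial markers at 25.5 to 73.7, 57.0 to 165 and 80.5 to 548 CPM. Without droplets with epithelial UMIs Il1b was at -0.42 against PBS (adjusted p = 0.148 by edgeR), so that this call was lost. Against mono-IL10 the 3 calls were kept, with Il1b at -0.69 (0.00233), Il1rn at -0.59 (0.0307) and Ptgs2 at -0.86 (0.0281). The part of macrophage RNA was not tested.

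Neutrophils hold little RNA, so barcodes with 300 or more but under 1000 genes were added after the data were seen. The added barcodes were 3402, at a median of 1076 UMIs, and with them all 15 mice entered. Il1rn (0.51, adjusted p = 0.00239 by edgeR) and Il1a (0.50, 0.0147) were again higher in mono-IL10 than in PBS, 2 members called where 3.65% of all genes were. Il1b in IL10/2-Trikine against PBS was then -0.17 (adjusted p = 0.47), and 0 members were called where 3.26% of all genes were. Against mono-IL10, Il1rn (-0.50, adjusted p = 0.00304) and Il1b (-0.38, 0.0333) stayed lower, 2 members called where 4.8% of all genes were. In the first setting, library totals moved the median of all neutrophil genes from -0.03 to 0.23 in IL10/2-Trikine minus mono-IL10 and from -0.04 to 0.16 against PBS, and the calls of Il1b against PBS and of 2 of the 3 against mono-IL10 were then lost. The split of higher and lower calls went from 85 and 124 to 143 and 58 in the former and from 13 and 58 to 14 and 12 in the latter, and from 83 and 115 to 58 and 146 in mono-IL10 minus PBS.

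Nlrp3, the last of the 5 members tested in neutrophils, averaged 1325, 1456 and 1420 CPM in the 3 groups and was not called in any contrast. Il18, Il6 and Il12b did not pass the filter on low counts. Il18 averaged 13.1, 10.8 and 36.3 CPM on 12, 18 and 3 UMIs. Il6 had 6, 1 and 0 UMIs, and Il12b had 0 in each group.

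With at least 10 cells per mouse, monocytes could be compared between mono-IL10 and PBS only, as 1 IL10/2-Trikine mouse, with 12 cells, was kept. None of the 6 members tested was called by edgeR, where 2.85% of all genes were, with 1 at an unadjusted p under 0.05, and DESeq2 called 0. That member was Il1b, which averaged 6009 ± 1293 CPM (SD, n = 5; 4756 to 7772) in PBS and 8257 ± 1585 CPM (n = 5; 5655 to 9945) in mono-IL10. The groups overlapped, and the log2 fold change was 0.48 ± 0.15 (adjusted p = 0.105 by edgeR). Markers of the class moved as well: Ly6c2, which marks classical monocytes, averaged 611 CPM in PBS (472 to 757) and 145 CPM (21.3 to 223) with mono-IL10, without overlap, and the 7 monocyte markers summed to 3774 to 4954 and 2270 to 4483 CPM. The neutrophil markers S100a8 and S100a9 averaged 881 and 975 CPM in PBS and 284 and 298 CPM with mono-IL10, and all 8 neutrophil markers summed to 928 to 4483 and 502 to 2793 CPM. Their part in the monocyte values was not tested. Il1b was 5648 CPM in the 1 IL10/2-Trikine mouse. With at least 5 cells, 4 IL10/2-Trikine mice entered, and 0 of 5 members were called against PBS (0.196% of all genes, 1 member at an unadjusted p under 0.05) or against mono-IL10 (0.274%, 2 members). With 30 components and 40 clusters the class was larger, at 39 to 135 cells per IL10/2-Trikine mouse. There 0 of 7 members were called against PBS (5.91% of all genes, 2 at an unadjusted p under 0.05) and 2 of 7 against mono-IL10 (3.91%), Il1b at a log2 fold change of -0.61 ± 0.11 (SE, adjusted p = 0.00163 by edgeR) and Ptgs2 at -0.61 ± 0.16 (0.0315). In the first setting, with at least 10 cells per mouse, Il1rn averaged 755 CPM in PBS and 885 CPM in mono-IL10 monocytes. In the same order Ptgs2 averaged 639 and 720, Il18 37.1 and 58.9, and Il6 12.5 and 32.9 CPM on 12 and 34 UMIs.

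**Figure D4:**
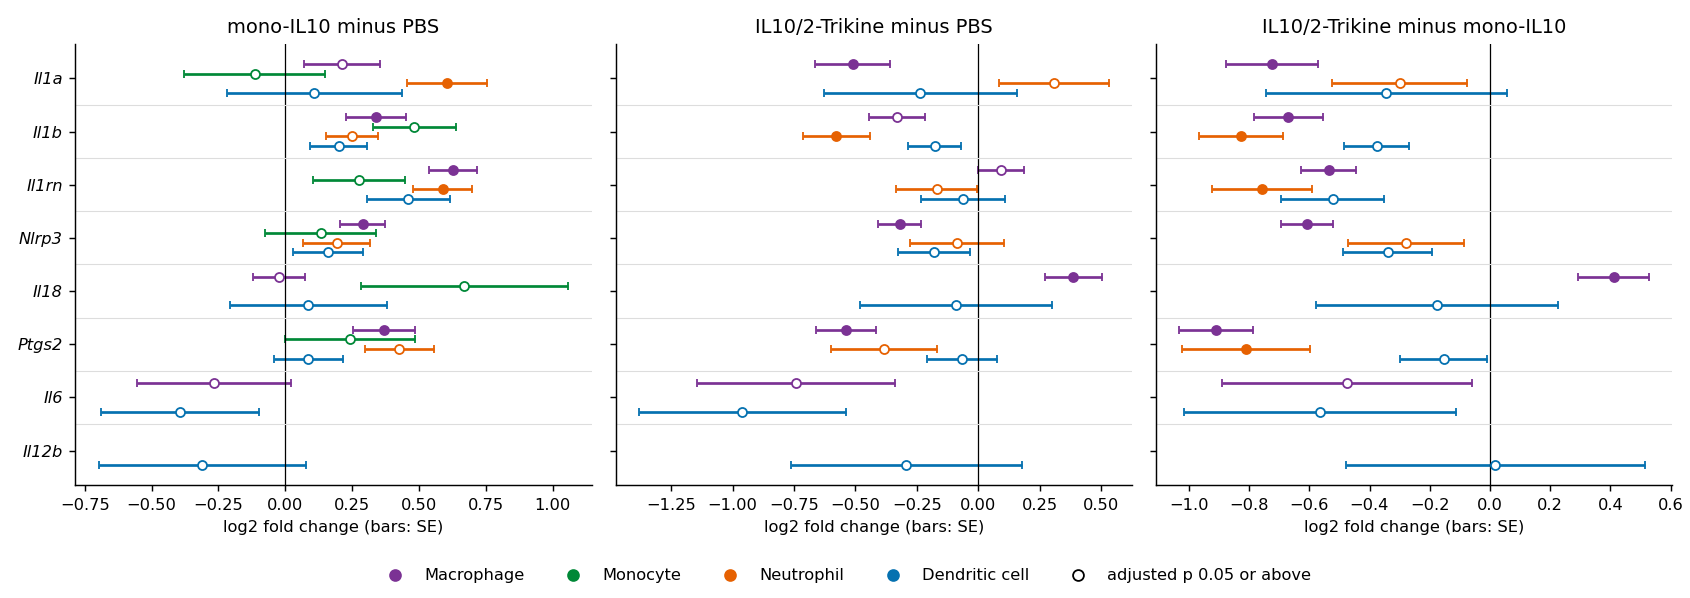
Log2 fold change with its SE for each member and class in the 3 contrasts, with filled points where the adjusted p was under 0.05. Il1rn is filled in macrophages (0.63) and neutrophils (0.59) in mono-IL10 minus PBS, and no dendritic cell or monocyte point is filled in these fits.

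Dendritic cells carried the widest set, with all 8 members tested, and 0 were called in any contrast by edgeR. The share of all genes called was 4.34% in mono-IL10 minus PBS, 1.91% in IL10/2-Trikine minus PBS and 1.61% in IL10/2-Trikine minus mono-IL10. At an unadjusted p under 0.05 stood 1, 1 and 3 members, and DESeq2 called 0, 0 and 1. Il1rn was 466, 607 and 460 CPM by mean, 0.46 higher in mono-IL10 than in PBS (log2, adjusted p = 0.106 by edgeR) and 0.52 lower in IL10/2-Trikine than in mono-IL10 (log2 fold change -0.52, adjusted p = 0.118). Il1b was 4685, 5091 and 4257 CPM, with a log2 fold change of -0.38 between the agents (adjusted p = 0.0758 by edgeR). Neutrophil markers in the dendritic cells summed to 640 to 1354, 219 to 532 and 619 to 1356 CPM in PBS, mono-IL10 and IL10/2-Trikine, with S100a8 at 309, 90.4 and 300 CPM by mean. Tumor epithelial markers summed to 116 to 359, 20.6 to 342 and 188 to 558 CPM, with Cldn4 at 0 in both treated groups. The part of neutrophil RNA in these values was not tested. Library totals moved the split of calls of all genes from 234 and 103 to 132 and 169 in mono-IL10 minus PBS, and from 27 and 98 to 68 and 28 between the agents.

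Il6 in dendritic cells averaged 25.8 CPM in PBS (11.4 to 36.0), 18.7 in mono-IL10 (10.8 to 35.2) and 14.2 in IL10/2-Trikine (7.4 to 23.4). These ranges overlapped, and the log2 fold change of IL10/2-Trikine against PBS was -0.96 (adjusted p = 0.291 by edgeR). Il12b was 112 CPM (33.9 to 196), 86.9 (30.8 to 180) and 116 (55.0 to 231), with wide overlap.

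The dendritic cells fell into 4 clusters, and Il12b depended on which. They were conventional type 1 cells (cDC1), mature cells, cluster 35, led by Ccl17, Plet1 and the type 2 marker Cd209a, and cluster 40, led by Plet1, Ccl17, Ccr7 and Ccl22. Cluster 40 scored highest for the type 2 markers, but its 10 leading genes held 2 mature-cell markers (Ccr7 and Ccl22) and 1 type 2 marker (H2-DMb2), so that both clusters were compared by number. Il12b averaged 387.6 CPM in mature dendritic cells over 14 mice (31.6 to 1432), 81.0 in cDC1 over 10 mice, 67.4 in cluster 40 over 12 mice and 15.2 in cluster 35 over 15 mice. These means pool the treatments, and cluster 40 averaged 138 CPM in PBS and 5.46 with mono-IL10. The mix shifted with treatment: cluster 35 was 36.6%, 31.2% and 43.5% of the dendritic cells for PBS, mono-IL10 and IL10/2-Trikine, cluster 40 21.9%, 34.2% and 15.7%, mature cells 21.8%, 20.5% and 32.9%, and cDC1 19.7%, 14.1% and 7.83%.

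In cluster 40, Il12b stood at 246, 117, 24.3, 196 and 107 CPM in PBS and at 16.2, 2.53, 0, 4.17 and 4.37 CPM in mono-IL10. Every mono-IL10 mouse was below every PBS mouse (means 5.46 and 138), with an exact permutation p of 0.00794 and an adjusted p of 0.175 over 55 tests, so the difference did not pass. As 0.00794 is the smallest p of the 252 splits of 5 against 5 mice, 1 comparison on its own could not pass over 55 tests. The 2 IL10/2-Trikine mice with 10 or more cells there had 89.9 and 0 CPM. In cluster 35, Il12b stood at 21.6, 102, 32.7, 14.1 and 0 CPM in PBS and at 16.5, 10.3, 0, 0 and 25.6 CPM in mono-IL10, with overlap (exact permutation p = 0.246, adjusted p = 0.615). With IL10/2-Trikine it was 4.65 CPM in 1 mouse and 0 in the other 4 (exact p = 0.0476 against PBS, adjusted p = 0.291).

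In mature dendritic cells the Il12b groups overlapped. Il12b stood at 288, 748, 285, 404 and 64.5 CPM in PBS, 153, 115, 1432 and 31.6 CPM in the 4 mono-IL10 mice with enough cells, and 184, 235, 984, 262 and 240 CPM in IL10/2-Trikine. Il6 was also highest in mature cells, at 46.9 CPM, with 13.6 in cluster 35, 13.1 in cluster 40 and 6.4 in cDC1. In cluster 35, Il1rn averaged 389 CPM with IL10/2-Trikine, below all 5 PBS mice (mean 605, exact permutation p = 0.00794, adjusted p = 0.175), and 804 CPM with mono-IL10. Il1b there was 5463 CPM in PBS, 5865 with mono-IL10 and 4210 with IL10/2-Trikine (exact p = 0.0476 and 0.0159 for IL10/2-Trikine against each, adjusted p = 0.291 and 0.175). Nlrp3 in mature cells averaged 117 CPM in 4 mono-IL10 mice and 215 CPM in PBS (exact p = 0.0317, adjusted p = 0.291), whereas in cluster 35 it was 480 against 369 CPM (exact p = 0.0397, adjusted p = 0.291). Of the 55 tests 9 had an unadjusted p under 0.05 and 0 passed.

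**Figure D5:**
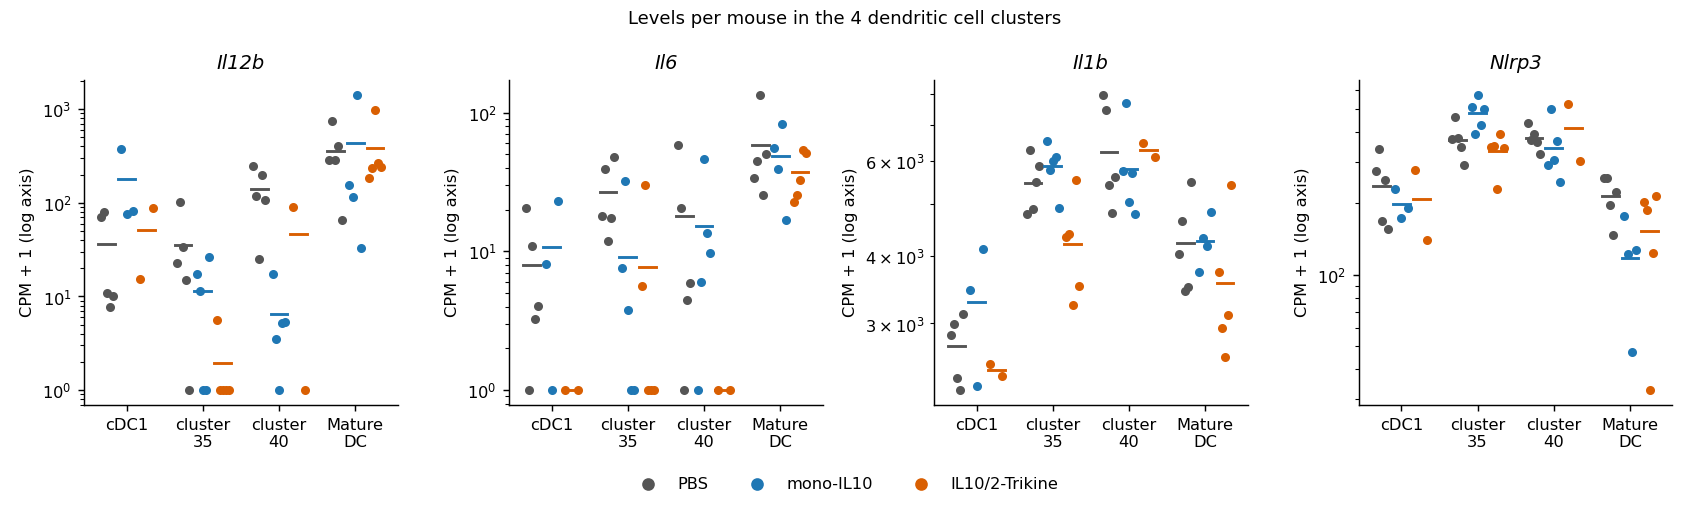
Il12b, Il6, Il1b and Nlrp3 in each mouse, as CPM + 1 on a log axis, in the 4 dendritic cell clusters by treatment, with bars for group means and mice with at least 10 cells. Il12b is highest in mature cells, at 387.6 CPM on average, and in cluster 40 the mono-IL10 mice lie below the PBS mice.

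Whether the members changed differently between classes was asked with 68 exact permutation tests of the difference of 2 classes' changes. None passed, 7 had an unadjusted p under 0.05, and the smallest adjusted p was 0.324. The smallest p that such a permutation test allows is 0.00794 with 5 against 5 mice and 0.0476 with 2 against 5. A single comparison could therefore not pass over 68 tests, and the lack of a pass does not show that the classes changed alike. Calls in macrophages and neutrophils and their absence in dendritic cells and, in these fits, monocytes are likewise not a shown difference between the classes.

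The other genes of these pathways were counted from fixed lists, chosen like the members with earlier results of these data known. Their values come from the fits of whole classes, whose mix of clusters shifted with treatment. Values at the same mix of macrophage clusters or with library totals are not given for them. Changes of these genes within a cluster are therefore not shown. Of the 14 NF-kB and TLR targets, 13 were tested in macrophages, where 3 rose and 2 fell in mono-IL10 against PBS (median log2 fold change 0.26, all genes -0.02, 25.9% of all genes called). In IL10/2-Trikine against PBS 0 rose and 3 fell (median -0.16, all genes 0.01, 15.6% called), and against mono-IL10 0 rose and 5 fell (median -0.29, all genes 0.03, 11.3% called). Nfkbia, which encodes the NF-kB inhibitor that NF-kB itself induces, rose by 0.64 in mono-IL10 and fell by 0.80 in IL10/2-Trikine relative to mono-IL10, with means of 1001, 1477 and 906 CPM. Ebi3 fell by 0.70 in mono-IL10 (adjusted p = 2.9e-05 by edgeR) and by 0.45 in IL10/2-Trikine (0.0154), each against PBS. The neutrophil chemokine gene Cxcl3 fell by 1.22 against PBS and by 0.92 against mono-IL10 in IL10/2-Trikine. In neutrophils 6 of 11 rose and 0 fell in mono-IL10 (4.87% of all genes called), among them Tnf (log2 fold change 1.33) and the chemokine genes Ccl3 (1.16) and Ccl4 (1.33). Against mono-IL10, 5 fell and 0 rose in the 2 IL10/2-Trikine mice (5.14%). Against PBS, Cxcl3 was called lower in these 2 mice (log2 fold change -1.75, adjusted p = 0.00192 by edgeR) and Tnf was not called (0.94, 0.0529). With the low-gene barcodes of all 15 mice 6 of 11 rose in mono-IL10 (3.65% of all genes called), 1 rose and 0 fell in IL10/2-Trikine against PBS (3.26%), and 0 rose and 6 fell against mono-IL10 (4.8%). Tnf was the 1 that rose in IL10/2-Trikine, by 0.88 (adjusted p = 0.00084 by edgeR), and was at -0.16 against mono-IL10 (0.57). Monocytes had 1 higher (Cxcl3, 1.41) and 1 lower (Ccl3, -0.90) of 10 in mono-IL10 (2.85% of all genes called). Dendritic cells had 0 higher and 1 lower (Cxcl3, -0.95) of 10 in mono-IL10 (4.34%) and none in the other contrasts.

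Of the 10 inflammasome genes, 1 rose and 2 fell in macrophages in mono-IL10 against PBS, a share near the 25.9% of all genes called. Mefv, which encodes pyrin, rose by 0.45, the DNA sensor Aim2 fell by 0.41 and Txnip by 0.24. In IL10/2-Trikine against PBS 1 was higher and 1 lower, near the 15.6% of all genes called, with the adaptor gene Pycard up by 0.34. Of the 11 receptors and binding proteins, Il1r1, the signaling IL-1 receptor, rose by 0.53 in macrophages with mono-IL10, where 25.9% of all genes were called. Il6st, of the same list, was lower by 0.46 in IL10/2-Trikine than in mono-IL10 macrophages (adjusted p = 0.0494 by edgeR), where 11.3% were called. Il1r2, the decoy receptor for IL-1, fell by 0.76 in IL10/2-Trikine against PBS in macrophages, by 0.85 in neutrophils, and by 0.61 and 1.17 against mono-IL10. The neutrophil values rest on 2 IL10/2-Trikine mice, and with the low-gene barcodes of all 15 mice Il1r2 was at -0.21 against PBS (adjusted p = 0.342 by edgeR) and fell by 0.40 against mono-IL10 (0.0244). In dendritic cells Il1r2 rose by 0.66 in mono-IL10 and fell by 0.67 in IL10/2-Trikine against mono-IL10.

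Of the 11 prostanoid and leukotriene genes, 2 rose and 4 fell in mono-IL10 macrophages against PBS (25.9% of all genes called). Hpgd, which degrades prostaglandin E2, fell by 2.58, Alox5, the first enzyme of leukotriene synthesis, by 0.92, and the receptor gene Ptger4 by 0.67, while Pla2g4a, which releases arachidonic acid, rose by 0.53. Against PBS 1 rose and 3 fell in IL10/2-Trikine (15.6% called), and 0 changed between the agents (11.3% called), where Ptgs2 itself was lower.

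Of the 11 genes of the IL-10 axis, 6 rose and 1 fell in macrophages with mono-IL10 (median log2 fold change 0.24, all genes -0.02, 25.9% of all genes called). With IL10/2-Trikine 3 rose and 0 fell (median 0.03, all genes 0.01, 15.6% called). Il4ra, a known STAT3-induced receptor gene, rose by 1.22 and 1.17, with means of 158 CPM in PBS, 346 with mono-IL10 and 362 with IL10/2-Trikine. Socs3, the feedback inhibitor induced by STAT3, rose by 0.59 in mono-IL10 and fell by 0.61 in IL10/2-Trikine against mono-IL10, and was at -0.02 against PBS (adjusted p = 0.93 by edgeR), with means of 318, 453 and 320 CPM. In macrophages Il10ra, the receptor chain of IL-10, averaged 132, 134 and 128 CPM, and Il2rb, the chain the second arm of the Trikine binds, 8.2, 5.9 and 23.1 CPM beside the T cell markers given above. In dendritic cells Il4ra rose by 0.67 and Nfil3 by 0.51 in mono-IL10, where 4.34% of all genes were called. In monocytes Il4ra rose by 1.13 (adjusted p = 0.00612 by edgeR) and Il10ra fell by 0.78 (0.0361) in mono-IL10, where 2.85% of all genes were called.

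The genes most like each member were found over 53 profiles of mouse and class among 3258 genes, by Pearson's r of log2 CPM, as a description. The profiles share libraries and mice. Il1b was most like Trem1 (0.95), Nfkbia (0.94) and Plek (0.94), Nlrp3 like Plek (0.95), Irak2 (0.94) and Nfkbia (0.93), and Ptgs2 like Nfkbia (0.89), Lilrb4b (0.88) and Trem1 (0.88). Il1rn was most like Igf1r (0.92), Plek (0.92) and Cd300ld (0.91), and Il1a like Arg2 (0.90). Il12b was most like Cst3 (0.97) and Rel (0.90), and Il18 (Hacd4, 0.75) and Il6 (Edem1, 0.74) had no close partner. Among the members, Il1rn and Nlrp3 (0.92), Il1b and Ptgs2 (0.91) and Il1b and Nlrp3 (0.90) ran together, and the most opposed were Il1rn and Il12b (-0.69), Il1rn and Il6 (-0.64) and Il1a and Il12b (-0.61).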

How the data were processed

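The labels name 1 gene expression library and 1 hashtag library for each of 3 treatments. The deposited count matrices, which the authors made with Cell Ranger 9.0.1 per the file headers on GRCm39, hold whole UMI counts per gene and barcode, not normalized. The submitters' processing notes also name Seurat 5.1.0 and DESeq2 1.46.0. The authors' cell table (counts of UMIs and genes and the percent of mitochondrial counts per cell, as deposited) covers T and NK cells only, so other cells were clustered anew. It was used as a check: the same hashtag call was obtained for 93.2%, 98.8% and 96.3% of its cells, none with another mouse. Its 7858 cells of a further group were not used, and 0 per-sample columns were left unmapped. The 8 members, the lists and the classes were chosen with earlier results of these data known.

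Barcodes were required to have 1000 or more genes, with mitochondrial UMIs making up 10% or less. Hashtags were called with HTODemux (Seurat 5.3.0, quantile 0.99), and barcodes with more than 1 hashtag were removed as doublets. No other doublet caller was run. Clusters were made by k-means (60 clusters, 40 components, 2000 variable genes, scikit-learn 1.9.0) and named from marker lists. A cluster whose second lineage scored above a ratio of 0.2 of the first stayed unnamed, a value set after 0.25 had named a T-cell-led cluster, and 4 macrophage clusters led by a marker of another class were left out of the class. UMIs were summed by mouse and class for mice with at least 10 cells and tested with edgeR 4.0.16 (R 4.3.3, quasi-likelihood, TMM, filterByExpr) over all groups at once, adjusted over all genes tested. Levels are CPM of those sums. Shares, ratios (pseudocount 1) and single dendritic and neutrophil clusters were compared by exact two-sided permutation over mice. Depth per macrophage sum was 515646 to 11227023 UMIs. On simulated counts 200 of 200 genes changed by 2-fold were recovered in each class in mono-IL10 minus PBS, with 2.44% to 4.76% of calls false. Smaller changes, and the contrasts with IL10/2-Trikine, were not simulated. The text names all members and, from the lists, genes that passed the test and those that bear on the treatment. DESeq2 1.42.0, other filters, thinning, cluster settings and leaving out each mouse were alternatives.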

Additional observations from a re-analysis of the deposited data

Results flagged for a closer look

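Of 69 groups of 4 or 5 mice tested for a mouse far from the others, 3 were picked out, and chance picks out about 1 in 20. All 3 were Il1a. In dendritic cells of IL10/2-Trikine mouse 3, Il1a was at 0.0 CPM, against 111.8 to 134.6 CPM in the other 4 mice, on 34 cells. In dendritic cells of PBS mouse 2 it was 231.4 CPM, against 79.88 to 114.9 CPM, on 191 cells and 493 UMIs of Il1a. In neutrophils of the same PBS mouse it was 1578 CPM, against 884.4 to 1043 CPM, on 54 cells and 318 UMIs.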

How the results depend on the processing

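No paired analysis was possible because the hashtag numbers name different mice in each group. Members called in macrophages, mono-IL10 minus PBS (4), numbered 2 with 30 components and 40 clusters (Il1rn, and Il18 in place of the other 3), with library totals (Il1rn and Nlrp3) and with the same cluster mix (Il1rn and Il1b), and 2 to 4 when each mouse was left out (2 without PBS 1, PBS 3 or mono-IL10 2). In IL10/2-Trikine minus PBS (4) they numbered 0 with the same mix, 2 with the 4 clusters put back, 1 without cluster 21 (both chosen after seeing the data) and 2 to 5 with a mouse left out (2 without IL10/2-Trikine 1). Between the agents (6) they numbered 0 with the same mix and 5 to 6 with a mouse left out. With the 4 clusters put back, Il1a lost its call between the agents and Il1b lost its call in mono-IL10 minus PBS. In neutrophils, IL10/2-Trikine minus PBS (1) fell to 0 with a stricter hashtag quantile, library totals, thinning, low-gene barcodes or no droplets with epithelial UMIs, and ranged over 0 to 1 (0 without either IL10/2-Trikine mouse, the lone one left being assumed to vary like the other groups, or without PBS 1 or PBS 2). Between the agents (3) it was 1 with library totals or thinning and 1 to 3 (1 without IL10/2-Trikine 1), and mono-IL10 minus PBS (2) was 1 when thinned and 1 to 3 (1 without PBS 4). In monocytes (0) it was 1 with at least 20 cells or when thinned and 0 to 1 (1 without PBS 2 or mono-IL10 4). In dendritic cells, between the agents (0), it was 1 with DESeq2 or at least 2000 genes, 3 with no filter and 0 to 1 (1 without IL10/2-Trikine 4 or mono-IL10 5). In mono-IL10 minus PBS it was 1 with no filter and 0 to 1 (1 without mono-IL10 5), and in IL10/2-Trikine minus PBS it was 0 throughout.

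For UMI shares by class (0), putting unnamed clusters in the denominator gave 22 (IL10/2-Trikine minus PBS), 11 (between the agents) and 1 (mono-IL10 minus PBS), and leaving out a mouse gave 0 to 0, 0 to 8 and 0 to 3, the highest without mono-IL10 5. For shares of cells with a UMI (0), no thinning gave 5, 7 and 1, and leaving out a mouse gave 0. Depth per cell differed between the groups there.

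Directions turned, among others, for Il18 in macrophages, mono-IL10 minus PBS (0.26 with 30 components and 40 clusters, adjusted p = 0.0303 by edgeR), Nlrp3, IL10/2-Trikine minus PBS (0.031 with the same mix), and, without thinning, the shares of macrophages with a UMI of Il18 (-4.00 points against PBS, -4.67 against mono-IL10), Il1a (-15.3 against mono-IL10) and Ptgs2 (-13.3 against PBS). Some macrophage values that were called in neither setting turned as well. With the same mix these included Il1b in IL10/2-Trikine minus PBS (0.029), and Il6 (0.36) and Il1a (-0.03) in mono-IL10 minus PBS. Apart from the same mix, thinning and fewer mice, whose construction changes cells or depth, the cause was not tested. Of the values that answer a comparison, 353 alternatives gave the same and 44 moved. The 2 IL10/2-Trikine mice with neutrophils and the 1 with monocytes limit the comparisons of those classes with IL10/2-Trikine.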
